A study of Mus musculus with 6 samples.

Results

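The genes for the proteins of the cytosolic ribosome were examined in 3 cultures grown from mouse bone marrow (BM) with GM-CSF. Members were chosen by name only, as the probes whose gene name is Rps or Rpl with a number, or is Rplp0, Rplp1, Rplp2 or Rpsa. This gave 182 of the 56605 probes on the array, for 84 genes. Of these, 179 probes for 83 genes (33 of the small and 50 of the large subunit) were bright enough to be tested, among 33484 probes for 21862 genes in all. Rpl10l, a relative of Rpl10, was well above background on no array and was not tested.

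All cultures came from C57BL/6J female mice 6 to 8 weeks old. MDSC (conv.) were myeloid-derived suppressor cells grown from whole BM for 4 days in 40 ng/mL GM-CSF. 6G- BM-MDSC were grown in the same way from BM freed of Ly-6G+ cells, which are mostly neutrophils, with magnetic beads. Dendritic cells (DCs) were grown for 8 days in 20 ng/mL GM-CSF, in dishes without tissue culture treatment, while the MDSC dishes were treated, so that they differed from both MDSC groups in dose, time and dish as well as in cell type. The labels' description of MDSC (conv.) names dendritic cells beside the MDSCs, and that of 6G- BM-MDSC does not. Each group had 2 single-colour arrays. Nothing says that the replicates were separate cultures, so a p-value measures only how far these samples spread, which may be technical. All 3 cultures are mixtures of cells, and fewer cells of a type cannot be told apart from less RNA per cell.

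A ribosome is built from ribosomal RNA and one copy of most of these proteins, and the proteins are made in step because a subunit cannot be finished when a protein is missing. Their mRNAs begin with a run of pyrimidines, the TOP motif, through which mTOR signalling and the protein Larp1 adjust their translation and their stability. They are among the most abundant mRNAs of most cells, and demand for them is high in growing progenitors. Ribosome assembly itself takes place in the nucleolus and uses a separate set of factors, driven in large part by Myc. Mitochondria carry a different ribosome with its own proteins.

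The markers followed the labels in part. Of 14 neutrophil markers, 12 were higher in MDSC (conv.) than in DCs and 12 were higher in 6G- BM-MDSC than in DCs. Of 12 dendritic cell markers, 11 were lower in MDSC (conv.) and 11 were lower in 6G- BM-MDSC. The remaining marker, Flt3, was called higher in 6G- BM-MDSC, with a log2 difference of 0.50 (limma adjusted p = 0.0155). Its difference for MDSC (conv.) was 0.20, without a call (adjusted p = 0.164). The DC marker Itgax still stood at 5.39 and 5.37 in MDSC (conv.) and at 5.49 and 5.23 in 6G- BM-MDSC on the scale explained next, against 6.28 and 6.20 in DCs. Other lists differed from DCs too. All 6 of 6 basophil and mast cell markers were higher in both MDSC groups (medians 2.64 and 2.55), 6 and 7 of 10 macrophage markers were lower and 1 was higher, 3 of 6 B cell markers were higher, and 2 of 3 erythroid markers were higher. Only tested markers are counted, which were 6 of 7 listed for B cells, 6 of 7 for T and NK cells and 3 of 7 for erythroid cells. Of 8 monocyte markers 3 and 4 were higher and 2 and 1 lower, of 6 T and NK cell markers 3 and 3 were higher and 1 and 0 lower in limma's test, with 4 and 4 at an unadjusted p below 0.05, and of 7 progenitor markers 3 and 4 were higher and 1 lower. The part that these cell types had in the differences of the ribosomal protein genes was not tested. Both MDSC groups lay in one row of arrays on the slide and DCs in the other, so that a difference between rows cannot be told apart from a difference from DCs. On the DC arrays 55.6% and 55.73% of probes were well above background, and on the MDSC arrays 59.09% to 59.93%. What this did to the scaling was not tested. In all, 0 spots were saturated.

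Levels are given as log2 of the processed intensity minus the array's 75th percentile, which corresponded to an intensity of 560.2 to 633.3. Levels of different probes are not compared, since probes differ in how well they bind. A gene was represented by its brightest probe, and 78 of the 83 genes had a probe in the brightest 5% of tested genes. Averaged over 10 spots, the intensity of 1 probe had a standard error near 0.02 on the log2 scale, taken from the median SD between its spots.

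The median level of the 83 genes was close within each group and highest in DCs. It was 7.53 and 7.49 on the arrays of MDSC (conv.), 7.56 and 7.55 on those of 6G- BM-MDSC, and 7.74 and 7.78 on those of DCs. All 4 MDSC arrays lay below both DC arrays. The SD between replicate arrays was 0.0244, smaller than the distance between the MDSC arrays and the DC arrays.

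**Figure D1:**
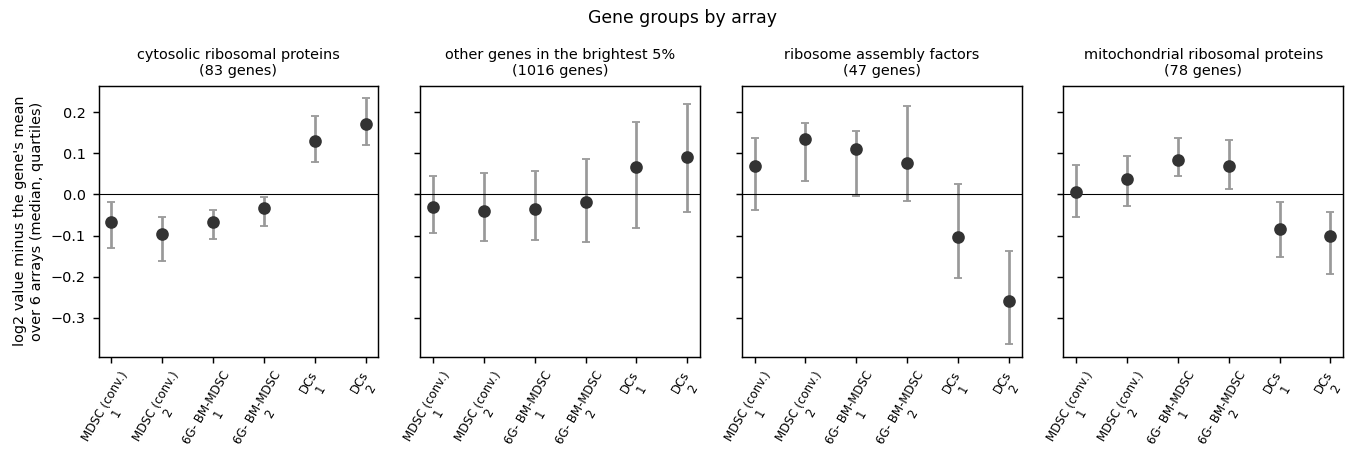
Each point is the median over a gene group on 1 array of the log2 level minus each gene's mean over the 6 arrays, and bars run from the lower to the upper quartile of genes. The cytosolic ribosomal proteins stood at -0.097 to -0.032 on the MDSC arrays and at 0.129 and 0.172 on the DC arrays, while ribosome assembly factors and mitochondrial ribosomal proteins stood lower on the DC arrays.

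The comparison of 6G- BM-MDSC with MDSC (conv.) asks what the removal of Ly-6G+ cells before culture changed. No ribosomal protein gene passed the test between these groups. The median log2 difference was 0.03, beside 0.00 over all genes, with 58 genes above 0 and 25 below. In limma's test 0 of 83 genes had an adjusted p below 0.05, against 0.0137% of all genes, and 3 had an unadjusted p below 0.05. The methods' t-test with Benjamini-Hochberg adjustment also called 0 of them, with 8 at an unadjusted p below 0.05.

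The widest differences in this comparison were those of 3 genes. Rps10, a small-subunit protein near the entry of the mRNA, stood at 8.25 and 8.08 in MDSC (conv.) and at 8.52 and 8.65 in 6G- BM-MDSC, a difference of 0.42 ± 0.10 (SE, limma adjusted p = 0.311). Its groups did not overlap. Rpl10a, part of the stalk of the large subunit from which used tRNAs leave, stood at 7.97 and 7.97 in MDSC (conv.) and at 7.62 and 7.58 in 6G- BM-MDSC, a difference of -0.37 ± 0.07 (SE, limma adjusted p = 0.284). Rpl36a differed by -0.39 ± 0.19 (SE), and 1 array of 6G- BM-MDSC at 6.34 lay apart from the other 3, at 6.91 to 7.05. Both Rps10 and Rpl10a had a second bright probe that gave the opposite sign, as described with the probes. For Rpl36a, an overlapping probe in 10 spots gave 0.05 ± 0.08 (SE, limma adjusted p = 0.84) with probes fitted in place of genes.

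Against DCs, most ribosomal protein genes were lower in MDSC (conv.), by a small amount. The median log2 difference was -0.25 (-15.9% on the linear scale), beside -0.03 over all genes, and 79 of 83 genes were below 0. Limma called 26 genes (31.3%), against 29.2% of all genes. The calls lay almost wholly on one side, with 24 genes lower, where 15.8% of all genes were lower, and 2 genes higher, where 13.4% of all genes were higher. The small and the large subunit had like medians, -0.22 and -0.25, with 9 of 33 and 15 of 50 genes lower.

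6G- BM-MDSC differed from DCs in much the same way. This comparison uses the same DC arrays, so its values stand beside the first and are not separate evidence. The median log2 difference was -0.21 (-13.5% on the linear scale), beside -0.04 over all genes, and 78 of 83 genes were below 0. Limma called 25 genes (30.1%), against 32.8% of all genes, of which 22 were lower (17.8% of all genes) and 3 were higher (15% of all genes). The small subunit had a median of -0.19 with 9 genes lower, and the large subunit one of -0.22 with 13 genes lower.

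Both the scaling of the arrays and the number of arrays limited these counts. Under quantile normalization, 11 genes were called in MDSC (conv.), 8 lower and 3 higher, with a median of -0.116, and 8 genes in 6G- BM-MDSC, 4 lower and 4 higher, with a median of -0.077. When arrays were scaled by their median, 13 genes (11 lower, 2 higher) and 7 genes (4 lower, 3 higher) were called, with medians of -0.215 and -0.11. Of all genes, 29.2% and 32.6% were called under quantile normalization, and 25.9% and 30.6% with scaling by the median. Of the 26 genes called in MDSC (conv.) 10 kept their call under quantile normalization, and of the 25 in 6G- BM-MDSC 7 did. The number called in MDSC (conv.), 26 with all arrays, was 0 without MDSC (conv.) replicate 2, 2 without DCs replicate 2, 6 without DCs replicate 1, 9 without MDSC (conv.) replicate 1 and 17 without either array of 6G- BM-MDSC. In 6G- BM-MDSC, 4 genes were called without DCs replicate 2, 6 without DCs replicate 1, 6 without 6G- BM-MDSC replicate 2, 8 without 6G- BM-MDSC replicate 1 and 11 without either array of MDSC (conv.).

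Counted without a test, 69 of 83 genes had all 4 MDSC arrays below both DC arrays, where 31.6% of all genes did, and 3 had them above, where 26.6% of all genes did. The 69 became 41 under quantile normalization, where 29.5% of all genes lay below, and 45 with scaling by the median, where 25.5% of all genes did. Other bright genes leaned the same way by less, with 470 of 1016 (46.5%) below and 194 (19.2%) above among genes of the brightest 5% that are not members. Their median difference from DCs was -0.098 for MDSC (conv.) and 0.006 under quantile normalization, and for 6G- BM-MDSC it was -0.126 and -0.004.

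**Figure D2:**
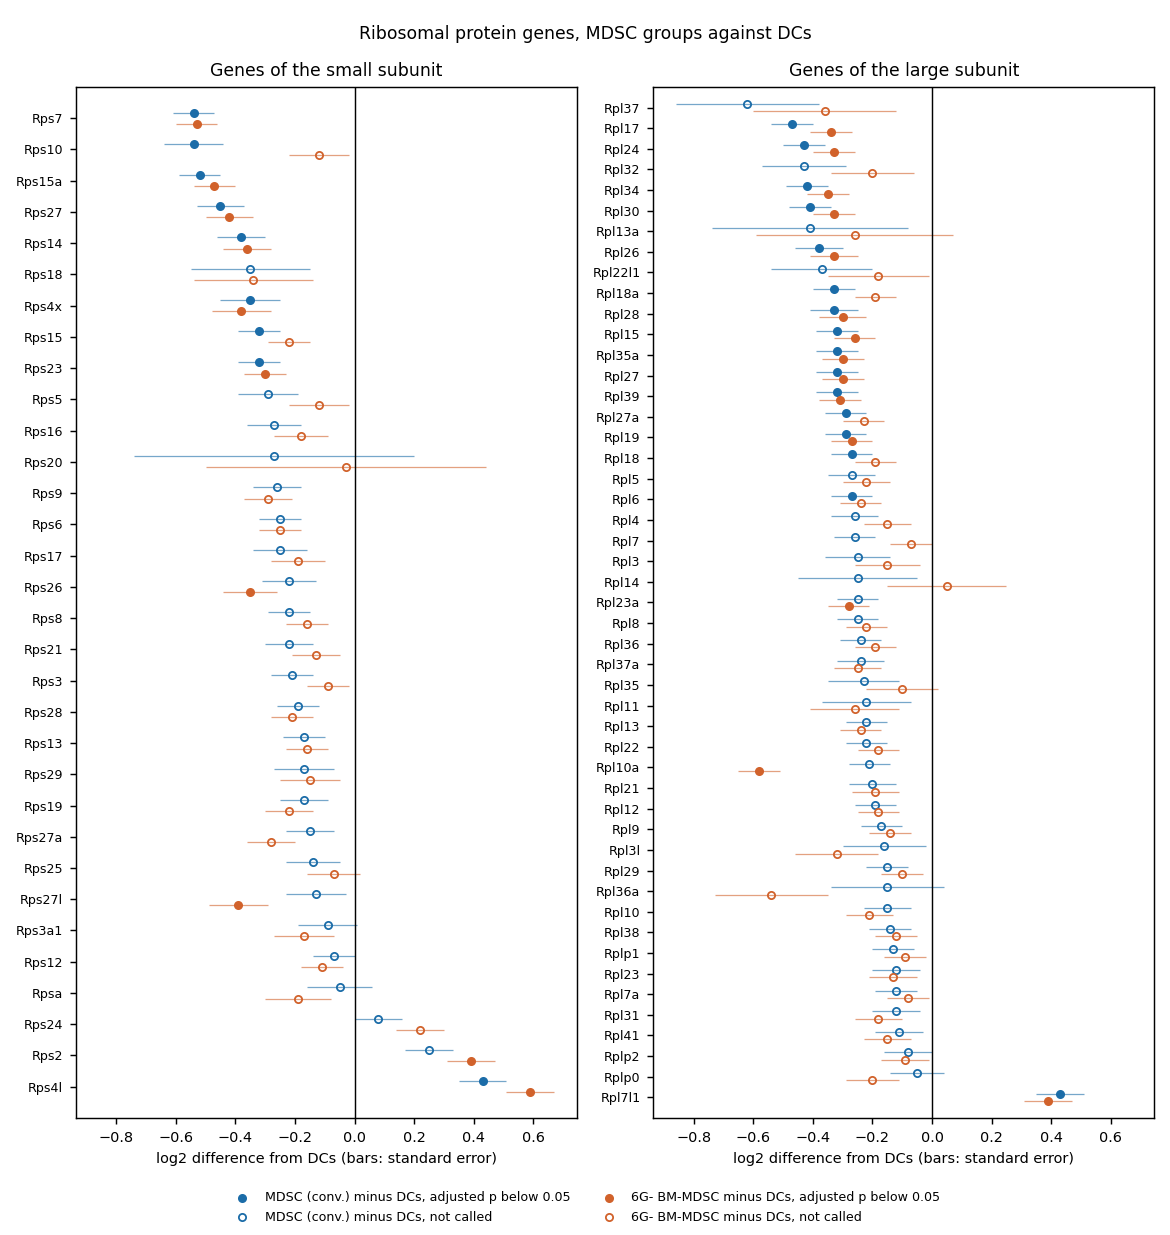
Points are log2 differences of single genes from DCs for MDSC (conv.) and 6G- BM-MDSC, bars are standard errors, and filled points have a limma adjusted p below 0.05; not every gene is drawn, and Rpl39l is left out for its standard error of 1.47. Most points lie between -0.6 and 0 in both subunits, and Rps4l, Rps2 and Rpl7l1 lie above 0 with a call in at least 1 comparison.

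In the small subunit, Rps7 and Rps15a, which are both parts of its body, were lower in both MDSC groups. Rps7 stood at 6.20 and 6.17 in MDSC (conv.), at 6.18 and 6.21 in 6G- BM-MDSC, and at 6.68 and 6.78 in DCs. The MDSC arrays lay within a narrow band below both DC arrays. The differences were -0.54 ± 0.07 and -0.53 ± 0.07 (SE, limma adjusted p = 0.00791 and 0.00775). Rps15a stood at 7.15 and 7.16, at 7.18 and 7.22, and at 7.63 and 7.72 in the same order, with differences of -0.52 ± 0.07 and -0.47 ± 0.07 (adjusted p = 0.00858 and 0.0105). Both genes were called under quantile normalization too, with differences of -0.45 and -0.43 for Rps7 and of -0.38 and -0.34 for Rps15a. When the probes of a gene were averaged instead of taking the brightest, Rps15a had -0.13 and -0.28 and was called in neither comparison. Of its 4 probes, 1 was well above background on 3 of 6 arrays.

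Rps10, with its brightest probe, was lower in MDSC (conv.), with DCs at 8.74 and 8.67. The difference was -0.54 ± 0.10 (adjusted p = 0.0161) in MDSC (conv.) and -0.12 ± 0.10 (adjusted p = 0.385) in 6G- BM-MDSC. A probe that shares 40 bases with it gave -0.22 (adjusted p = 0.318) and -0.68 (adjusted p = 0.0275) in the fit over probes, the reverse order. With the mean of its probes Rps10 was called in 6G- BM-MDSC (-0.35, adjusted p = 0.033), so that which MDSC group differs rests on the probe. Rps27 (-0.45 and -0.42), Rps14 (-0.38 and -0.36), Rps23 (-0.32 and -0.30) and Rps4x (-0.35 and -0.38), all of the small subunit, were lower in both MDSC groups. All 4 genes lost both calls under quantile normalization, with limma adjusted p of 0.0544 to 0.131. Rps26, which lines the path of the mRNA, had differences of -0.22 (adjusted p = 0.139) and -0.35 (adjusted p = 0.0412), the latter -0.20 (adjusted p = 0.17) under quantile normalization.

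In the large subunit, Rpl24 stood at 6.38 and 6.32 in MDSC (conv.), at 6.45 and 6.45 in 6G- BM-MDSC and at 6.76 and 6.81 in DCs. Rpl24 forms part of the contact with the small subunit. Its differences were -0.43 (adjusted p = 0.0127) and -0.33 (adjusted p = 0.0243), and no MDSC array reached a DC array. Rpl17 (-0.47 and -0.34), Rpl34 (-0.42 and -0.35), Rpl30 (-0.41 and -0.33) and Rpl26 (-0.38 and -0.33) were lower in both groups, as were Rpl15, Rpl19, Rpl27, Rpl28, Rpl35a and Rpl39, with differences of -0.33 to -0.26. Under quantile normalization Rpl24, Rpl17, Rpl34 and Rpl30 kept their call in MDSC (conv.) and, of all these large-subunit genes, Rpl30 alone kept it in 6G- BM-MDSC.

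Rpl10a had a difference of -0.58 ± 0.07 (adjusted p = 0.00546) in 6G- BM-MDSC and of -0.21 ± 0.07 (adjusted p = 0.0922) in MDSC (conv.), against 8.14 and 8.22 in DCs. It held its call in 6G- BM-MDSC under quantile normalization, at -0.44, and lost it with the mean of its probes, at -0.17. Its standing is tied to the choice of probe, as given with the probes.

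The stalk proteins, which bring translation factors to the large subunit, passed no test. Rplp0 had differences from DCs of -0.05 (adjusted p = 0.711) and -0.20 (adjusted p = 0.153), Rplp1 of -0.13 and -0.09, and Rplp2 of -0.08 and -0.09. Rpsa, also known as the laminin receptor, had differences of -0.05 and -0.19, with DCs at 8.25 and 8.16 and MDSC (conv.) at 8.15 and 8.16. Under quantile normalization Rplp0, Rplp2 and Rpsa turned to 0.09, 0.08 and 0.08 in MDSC (conv.), and Rplp1 and Rplp2 to 0.08 and 0.11 in 6G- BM-MDSC, again without a call. Rps27a, which is made as a fusion with ubiquitin, had differences of -0.15 (adjusted p = 0.236) and -0.28 (adjusted p = 0.0572).

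Loss of a single copy of Rps19, Rpl5 or Rpl11 in humans causes Diamond-Blackfan anaemia, in which the red cell lineage fails. With the brightest probe limma called 0 of these 3 genes in either comparison. Rps19 had differences of -0.17 (adjusted p = 0.152) and -0.22 (adjusted p = 0.0808), Rpl5 of -0.27 (adjusted p = 0.0561) and -0.22 (adjusted p = 0.0885), and Rpl11 of -0.22 (adjusted p = 0.326) and -0.26 (adjusted p = 0.23). Unadjusted, limma's p was below 0.05 for Rpl5 in both comparisons (0.0173 and 0.0374) and for Rps19 in 6G- BM-MDSC (0.0329). With the mean of its probes Rps19 was called in both comparisons (-0.30 and -0.33, adjusted p = 0.0333 and 0.0237) and Rpl5 in 6G- BM-MDSC (-0.31, adjusted p = 0.0411). Rpl5 was also called in MDSC (conv.) with normexp background correction (adjusted p = 0.0314), when probes had to be well above background on each of 6 arrays (adjusted p = 0.0448) and with a prior variance that depends on intensity (adjusted p = 0.0149).

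Rps4l, Rpl7l1 and Rps2 were the 3 genes called higher. Rps4l, a copy of Rps4x that the array annotates with a non-coding transcript, stood at 1.52 and 1.62 in MDSC (conv.), at 1.74 and 1.73 in 6G- BM-MDSC and at 1.13 and 1.16 in DCs. Its differences were 0.43 ± 0.08 (adjusted p = 0.016) and 0.59 ± 0.08 (adjusted p = 0.00602), opposite in sign to those of Rps4x. Rpl7l1, a relative of Rpl7 known from the assembly of the large subunit, stood at 0.68 and 0.71, at 0.64 and 0.67, and at 0.34 and 0.20 in the same order. All its MDSC arrays lay above both DC arrays. The differences were 0.43 ± 0.08 (adjusted p = 0.0196) and 0.39 ± 0.08 (adjusted p = 0.0235).

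Rps2, a small-subunit protein at the entry of the mRNA, was the one called gene besides these relatives that was higher with its brightest probe. The array places this probe at chr17:42864841-42864900 on mm9, away from a second Rps2 probe, printed in 10 spots, at chr17:24857583-24857642. It stood at 7.01 and 7.13 in MDSC (conv.), at 7.17 and 7.25 in 6G- BM-MDSC and at 6.80 and 6.84 in DCs. Both MDSC groups lay above DCs. The difference passed the test in 6G- BM-MDSC (0.39, adjusted p = 0.025) and not in MDSC (conv.) (0.25, adjusted p = 0.0844), where it passed under quantile normalization (0.35, adjusted p = 0.0378). The second probe gave 0.20 and 0.25 and was called in neither comparison.

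Rps24, whose transcripts are spliced in several ways, had no call with its brightest probe. That probe stood at 7.76 and 7.78 in MDSC (conv.), at 7.92 and 7.90 in 6G- BM-MDSC and at 7.77 and 7.62 in DCs, with differences of 0.08 and 0.22. Under quantile normalization the second became 0.36 and was called (adjusted p = 0.0474). A probe for another Rps24 transcript gave -0.08 and -0.33, the latter called over all probes (adjusted p = 0.0311), and a further probe gave -0.41 and -0.27 without a call.

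**Figure D3:**
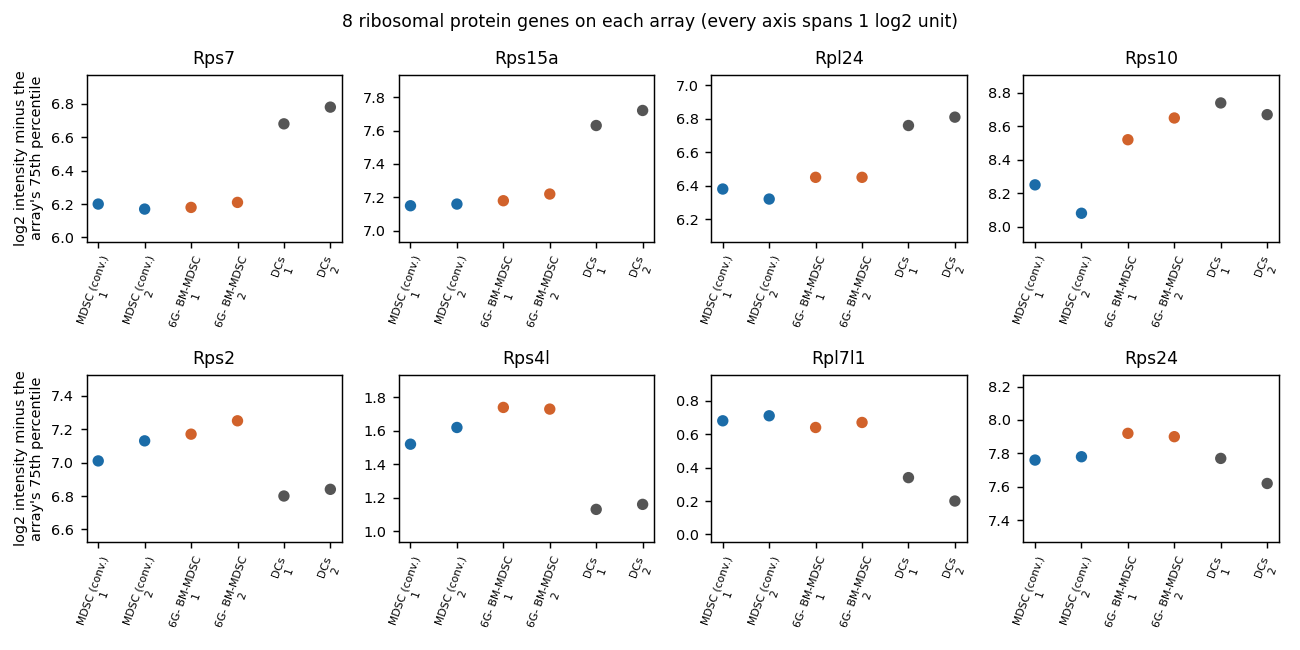
Each point is the log2 intensity minus the array's 75th percentile of 1 gene on 1 array, and every vertical axis spans 1 log2 unit, so that distances compare between panels but heights do not. Rps7, Rps15a and Rpl24 have both DC arrays above all MDSC arrays, Rps2, Rps4l and Rpl7l1 have them below, and Rps10, with the probe drawn, has the arrays of 6G- BM-MDSC near those of DCs, while an overlapping probe placed them below.

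Among the other relatives of ribosomal proteins, Rps27l, a p53-responsive relative of Rps27, stood at 6.56 and 6.51 in MDSC (conv.), at 6.17 and 6.38 in 6G- BM-MDSC and at 6.67 and 6.66 in DCs. It was lower in 6G- BM-MDSC (-0.39, adjusted p = 0.0365) and had a difference of -0.13 (adjusted p = 0.347) in MDSC (conv.). Its call was lost under quantile normalization (-0.28) and with the mean of its probes (-0.21). Rpl22l1 (-0.37 and -0.18) and Rpl3l (-0.16 and -0.32), relatives of Rpl22 and Rpl3, were not called. Rpl22l1 was called in MDSC (conv.) without MDSC (conv.) replicate 1 (-0.61, adjusted p = 0.0366), and Rpl3l in 6G- BM-MDSC with the replicate block (-0.32, adjusted p = 0.0429). Rpl39l could not be read, since replicates 1 stood at -3.87, -3.95 and -3.36 and replicates 2 at -1.04, -1.23 and -0.91 in MDSC (conv.), 6G- BM-MDSC and DCs. Without the 6 tested relatives, 24 genes counted as lower than in DCs for MDSC (conv.) and 0 higher, against 21 and 1 for 6G- BM-MDSC.

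The name rule leaves out some ribosomal proteins. Fau, a fusion of a small-subunit protein, had differences of -0.05 and -0.59 without a call, and 1 array of 6G- BM-MDSC at 7.78 stood apart from the other 5, at 8.70 to 8.92. Rack1, a scaffold on the small subunit, had differences of 0.08 and -0.14.

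Promoter sequences were read for 62 of the 83 genes from RefSeq, on GRCm38.p6, to look for the pyrimidine run with which these mRNAs begin. A run of 8 or more C or T on the sense strand, in the window from 20 bases before to 10 after the start, was found in 29 of 74 member promoters (39.2%) and in 12.6% of all 32851 promoters. On the other strand such a run was found in 4 member promoters (5.41%) and in 13.1% of all promoters. The windows of 4 genes with a run are shown first, with the longest run in capitals, and those of 3 genes without one, which include Rps7, with one of the widest lower differences, and both Rps2 and Rpl7l1, which were higher.
Rps10 chr17:27635235-27635264, minus strand: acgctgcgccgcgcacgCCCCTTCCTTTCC
Rps15a chr7:118116138-118116167, minus strand: gcccaCTCTCTTTCTgccatcttccctcgc
Rps27 chr3:90213639-90213668, minus strand: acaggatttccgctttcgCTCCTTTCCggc
Rpl28 chr7:4792945-4792974, plus strand: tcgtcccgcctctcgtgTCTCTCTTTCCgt
Rps7 chr12:28635944-28635973, minus strand: gaagagcttccggtttccacccacctactt
Rps2 chr17:24720043-24720072, plus strand: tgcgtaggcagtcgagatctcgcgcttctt
Rpl7l1 chr17:46782647-46782676, minus strand: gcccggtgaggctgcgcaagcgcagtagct

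The 28 genes with a run and the 34 without had overlapping differences from DCs. In MDSC (conv.) the medians were -0.27 and -0.21, with 11 and 8 genes lower, and the ranges were -0.54 to 0.08 and -0.62 to 0.43. The value of -0.62 is that of Rpl37, whose dim probe, with a mean intensity of 38.4, was not called (limma adjusted p = 0.112). In 6G- BM-MDSC the medians were -0.23 and -0.21, with 9 and 8 genes lower. No test was made of this split, and a start site that is placed a few bases off moves a run out of the window. Runs shorter than 8 were not counted, such as that of 6 at the end of the Rps2 window. Genes without a run are thus not shown to lack a TOP motif.

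Other motifs were searched on both strands of 300 bases, from 250 before the start. CCGGAAG, the core of the site of Ets factors, was found in 27 of 74 member promoters (36.5%) and in 8.86% of all promoters. CACGTG, the E-box that Myc binds, was found in 8 (10.8%) and in 7.15%, and TATAAA, the TATA box, in 7 (9.46%) and in 13.6%. These are letter matches and not binding sites.

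Many members were measured more than once, and the probes did not all give the same value. Over probes, 63 of 179 were called in MDSC (conv.), against 27.7% of all probes, with 56 lower (14.3% of all probes) and 7 higher (13.4%). In 6G- BM-MDSC 62 were called, against 31.1% of all probes, with 56 lower (16.2%) and 6 higher (15%). The array prints 300 probes in more than 1 spot, and 65 of these, in 10 spots each, are members. Limma called 37 of these 65 lower in MDSC (conv.). For 6G- BM-MDSC it called 31 lower, and in both comparisons 0 higher. At an unadjusted p below 0.05, 56 and 53 of the 65 passed. Of the 114 tested probes in 1 spot, 19 and 25 were lower and 7 and 6 were higher.

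Probes in 10 spots varied less between replicates. Replicate arrays differed by a median of 0.0367 for probes in 10 spots and of 0.0707 for bright probes in 1 spot, and the largest gaps were 0.202 and 1.8. Of the 83 genes, 35 were represented by a probe in 10 spots, with 18 and 15 lower in MDSC (conv.) and 6G- BM-MDSC. The other 48 were represented by a probe in 1 spot, with 6 and 7 lower. Of all genes, 15.8% and 17.8% were lower, and the shares of these 48 were not above that. The brightest probe of Rps20, printed in 1 spot, stood at 7.16 and 8.61 on the arrays of DCs, with a standard error of 0.47. On the MDSC arrays it stood between 7.60 and 7.94. Its difference for 6G- BM-MDSC turned from -0.03 to -0.75 without DCs replicate 1 and to 0.70 without DCs replicate 2, with limma adjusted p = 0.0288 and 0.0341.

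Overlapping probes of 1 gene did not always give like values. The pairs differed in how far they overlapped and in mismatched bases as well as in spots. The part that the number of spots had in the gaps was not tested. Probes of 1 gene overlapped in 14 pairs. In the 4 pairs with both probes in 10 spots, the differences from DCs lay within 0.06 of each other. In the 10 pairs with a probe in 1 spot, the largest gap over all 3 comparisons was 0.87, between Rps10 probes that share 40 bases without a mismatch. One gave 0.42 for 6G- BM-MDSC minus MDSC (conv.) and the other -0.45. A further Rps10 probe, in 10 spots, stood at 6.54 and 6.51 in MDSC (conv.), at 6.58 and 6.58 in 6G- BM-MDSC and at 6.80 and 6.87 in DCs. Its MDSC groups lay close together and below DCs. For Rpl10a, a second bright probe gave 0.13 for 6G- BM-MDSC minus MDSC (conv.), and -0.31 and -0.18 against DCs.

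The last bases of overlapping Rpl37a probes and the differing bases of overlapping Rps20 probes are shown because the probes of each pair lie on nearly the same bases and gave unlike values. Positions are on mm9 as the array gives them, and capitals mark bases that differ.
Rpl37a probe in 10 spots, chr1:72760167-72760196, plus strand: cctgcaataaacgggttatttacgtaaCTT
Rpl37a probe in 1 spot, chr1:72760167-72760196, plus strand: cctgcaataaacgggttatttacgtaaAAA
Rps20 brightest probe, chr4:3761620-3761649, minus strand: aagacaactgaataaatcgTcttaatGgtc
Rps20 other probe, chr4:3761620-3761649, minus strand: aagacaactgaataaatcgActtaatAgtc

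Of 59 shared positions, 3 differed in the Rpl37a pair. The probe in 10 spots stood at 8.59 and 8.52 in MDSC (conv.), at 8.50 and 8.57 in 6G- BM-MDSC and at 8.75 and 8.83 in DCs, with differences of -0.24 and -0.25 and no call. The probe in 1 spot stood at 7.73 and 8.02, at 7.90 and 8.08, and at 8.72 and 8.76, with differences of -0.87 (adjusted p = 0.00955) and -0.75 (adjusted p = 0.0132). Both placed DCs above all MDSC arrays. In the Rps20 pair 2 of 55 shared positions differed, and the second probe gave -0.14 and -0.26 with a standard error of 0.10, against -0.27 and -0.03 with a standard error of 0.46 for the brightest probe in the same fit over probes.

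Dim probes of the same genes often gave the opposite sign. The mean intensities of member probes left a gap between 7450 and 18600, and a limit of 10000 was set in it after the values were seen. Of 153 probes above the limit, limma called 54 lower and 0 higher for MDSC (conv.), with 95 at an unadjusted p below 0.05 in either direction. For 6G- BM-MDSC it called 53 lower and 1 higher. Of 26 probes below the limit, it called 2 lower and 7 higher for MDSC (conv.), against 3 lower and 5 higher for 6G- BM-MDSC. Of all probes, 14.3% were lower and 13.4% higher for MDSC (conv.), and 16.2% and 15% for 6G- BM-MDSC. Below the limit 34.6% and 30.8% were called in either direction, and above it 35.3% and 35.3%. Of all probes 27.7% and 31.1% were called. The medians were -0.26 and -0.25 above the limit and 0.20 and 0.09 below it. In 19 genes with probes on both sides, the dim mean was above 0 and the bright mean below 0 in 13 genes for MDSC (conv.) and in 12 for 6G- BM-MDSC.

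Rpl13, a large-subunit protein, had the dim probe with the largest difference among members. It carries an Ensembl accession and stood at -1.18 and -0.92 in MDSC (conv.), at -1.31 and -1.24 in 6G- BM-MDSC and at -2.30 and -2.12 in DCs. All MDSC arrays lay above both DC arrays, with differences of 1.16 (adjusted p = 0.0037) and 0.93 (adjusted p = 0.00641). The probe lies at chr8:125628690-125628749 on mm9, inside the span chr8:125627816-125628964 of a bright Rpl13 probe, whose 60 bases are placed over 1149 and so leave out a stretch between them. That bright probe gave -0.22 and -0.24, without a call.

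Dim probes of Rps13 (0.66 and 0.47) and Rps12 (0.38 and 0.43) were also higher in both groups, while bright probes of these genes gave -0.17 and -0.16, and -0.07 and -0.11, without a call. A dim Rps27a probe was higher in MDSC (conv.) (0.51, adjusted p = 0.0249) and had a difference of 0.35 in 6G- BM-MDSC. Of the 26 dim probes 12 carry Ensembl accessions, 10 RefSeq transcripts, 3 GenBank sequences and 1 a predicted transcript, against 6, 134, 13 and 0 of the 153 bright probes. What the dim probes bind was not tested.

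**Figure D4:**
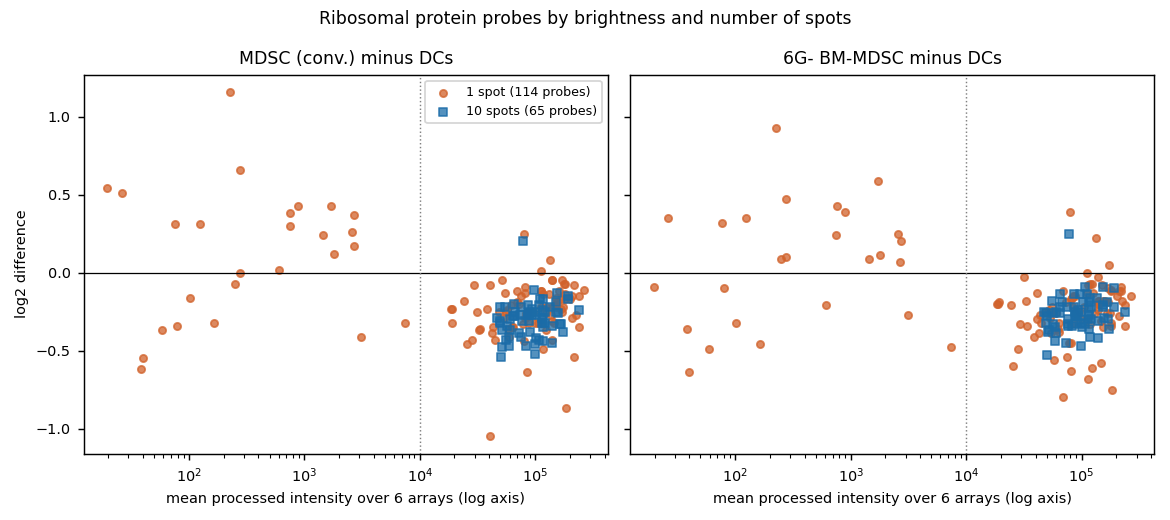
Each point is 1 tested member probe, with its mean processed intensity over 6 arrays on a log axis and its log2 difference from DCs, as squares for probes in 10 spots and circles for probes in 1 spot; the dotted line is the limit of 10000. Bright probes lie mostly below 0, those in 10 spots most closely together, and 16 of the 26 dim probes lie above 0 in each comparison.

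Ribosomal protein genes have many processed copies in the genome, and signals of near-identical copies cannot be told apart from the gene's own. For 7 member probes the array gives a position on another chromosome than the gene's, among them both probes of Rps27 in 10 spots on chromosome 9 and a probe of Rpl13 in 10 spots on chromosome 4. These Rps27 probes gave -0.45 and -0.44 in MDSC (conv.) and -0.42 and -0.41 in 6G- BM-MDSC.

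The genes that build ribosomes leaned the other way from the ribosomal protein genes. MDSC (conv.) had 14 of 47 ribosome assembly factors higher than DCs and 0 lower, with a median difference of 0.27, where 13.4% of all genes were called higher. 6G- BM-MDSC had 17 higher and 1 lower, also with a median of 0.27, where 15% of all genes were called higher. Examples are Gnl3, nucleostemin, a nucleolar protein of proliferating cells (0.65 and 0.67), Rrs1, needed to assemble the large subunit (0.58 and 0.59), and Polr1b, a subunit of RNA polymerase I (0.45 and 0.72). The gene that was lower is Ncl, nucleolin, at 4.17 and 4.13 in 6G- BM-MDSC against 5.04 and 4.83 in DCs, a difference of -0.79 (adjusted p = 0.00543). Without a test, 24 of 47 had all MDSC arrays above both DC arrays and 3 had them below, where 26.6% and 31.6% of all genes did.

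Mitochondrial ribosomal proteins had medians above 0, with shares called higher near those of all genes. MDSC (conv.) had 10 of 78 genes (12.8%) higher than DCs, where 13.4% of all genes were, and 0 lower, with a median of 0.14. 6G- BM-MDSC had 14 (17.9%) higher, where 15% of all genes were, and 0 lower, with a median of 0.18. The 14 became 26 with scaling by the median (median 0.281) and 28 with normexp. At an unadjusted p below 0.05, 18 and 30 of them passed in limma. Mrpl47 (0.47 and 0.54) and Mrpl16 (0.45 and 0.41) are examples. Without a test, 45 of 78 had all MDSC arrays above both DC arrays, where 26.6% of all genes did, and 4 had them below, where 31.6% did.

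Translation factors whose mRNAs also begin with a TOP motif had medians below 0, with shares called lower near those of all genes. MDSC (conv.) had 2 of 18 lower (11.1%, against 15.8% of all genes) and a median of -0.16. 6G- BM-MDSC had 4 lower (22.2%, against 17.8%) and a median of -0.11, which became -0.03 under quantile normalization and -0.008 with scaling by the median. Limma called 0 higher, with 7 and 7 of the 18 at an unadjusted p below 0.05 in either direction. Eef2, which moves the ribosome along the mRNA, was lower in both (-0.40 and -0.57, adjusted p = 0.0166 and 0.00587), and so was Eif3f, a subunit of an initiation factor (-0.43 and -0.32). Eef1a1, which delivers tRNAs, was lower in 6G- BM-MDSC (-0.53, adjusted p = 0.012) and had a difference of -0.26 (adjusted p = 0.0857) in MDSC (conv.). Under quantile normalization 1 and 2 of the 18 were lower.

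Genes that regulate ribosome production moved both ways. MDSC (conv.) had 2 of 18 higher than DCs and 3 lower (27.8% called, against 29.2% of all genes). 6G- BM-MDSC had 5 higher and 2 lower (38.9%, against 32.8%). Both counts of higher genes and both shares include Mycn, which passed the filter through the MDSC groups alone, so its call is no support. In MDSC (conv.) Mycn was at least 2.95-fold higher than in DCs, and for 6G- BM-MDSC the bound was at least 2.88-fold higher. Bounds are given because its probe was well above background on 0 of 2 DC arrays and entered the test through the MDSC groups alone. Limma's adjusted p (0.000678 and 0.000671) was taken from the measured values, with DCs near background, and does not apply to the bounds. The bound sets each DC array at its lowest signal called well above background. Eif4e, which binds the cap of mRNAs, was higher in both groups (0.43 and 0.39), and Rptor, the partner through which mTOR reaches its targets, was lower in both (-0.82 and -0.75). Of 12 proliferation genes, 3 (Cdk1, Mcm5 and Mki67, 25% against 13.4% and 15% of all genes) were higher and 0 lower in each comparison by limma, with 6 and 4 at an unadjusted p below 0.05.

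**Figure D5:**
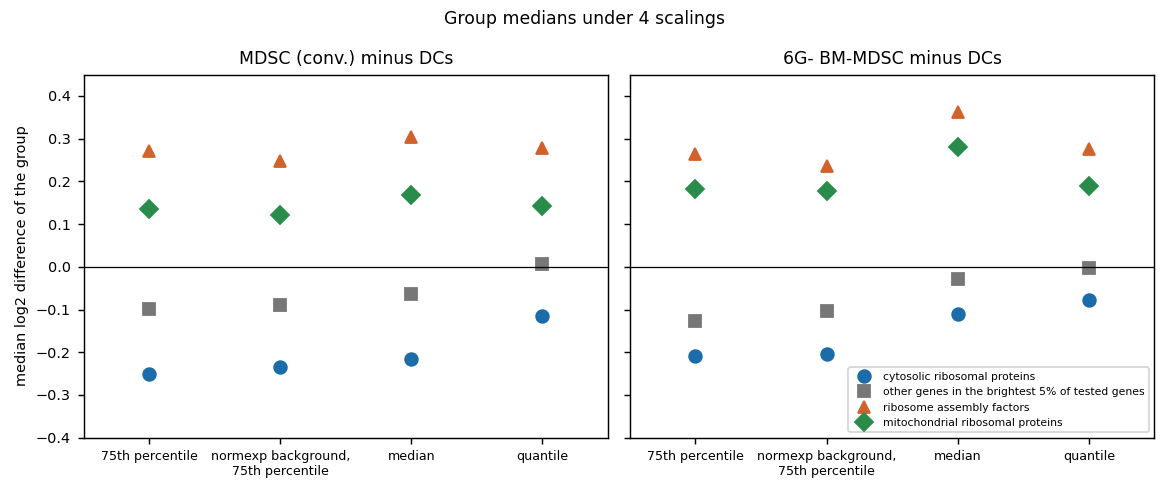
Points are the median log2 difference from DCs of 4 gene groups under 4 ways of making arrays comparable. The median of the cytosolic ribosomal proteins is below 0 in every case and moves from -0.25 to -0.116 in MDSC (conv.) and from -0.209 to -0.077 in 6G- BM-MDSC between the 75th percentile and quantile normalization, while the medians of assembly factors and mitochondrial ribosomal proteins stay above 0.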

How the data were processed

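RNA of 6 samples was labelled with Cy3 and hybridised to Agilent mouse arrays with probes of 60 bases. The deposited values are processed intensities on a linear scale, from which the authors' image software had subtracted background, with no scaling between arrays. The software is version 10.5.1.1 in the submitters' processing notes and 10.7.3.1 per the file headers. The deposited value table holds the same intensities and served as an alternative.

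Marked spots and control probes were left out, spots of a probe were averaged, log2 was taken and each array's 75th percentile subtracted. A probe was kept where at least 1 group had it well above background on both arrays. Symbols of 1535 probes were updated through RefSeq accessions. All 6 arrays entered a single fit with the group as factor (limma 3.58.1, R 4.3.3, lmFit and eBayes, residual degrees of freedom 3, prior 1.96), with Benjamini-Hochberg adjustment over all genes or all probes and a threshold of 0.05. The script was tested on simulated data. The number of arrays limits the precision.

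The members, gene lists and tests were chosen with earlier results of these data known. Named members are the 6 highest and 6 lowest of a comparison (those called, filled up by size), the stalk proteins, Rpsa, Rps27a, paralogs and Rps19, Rpl5 and Rpl11, and from other lists up to 3 genes. Other members were named after their values were seen. Replicate numbers were checked for pairing, with correlations of deviations of 0.11, 0.12 and 0.04. Some genes are not reported here.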

Additional observations from a re-analysis of the deposited data

How the results depend on the processing

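No ribosomal protein gene was called between the MDSC groups under any alternative run. Against DCs the median difference stayed below 0 under every alternative run. When dim probes were not filtered out, all genes had a median of -0.194 in MDSC (conv.), where ribosomal protein genes had -0.249. For 6G- BM-MDSC all genes then stood at -0.214, so that ribosomal protein genes, at -0.206, were no lower than genes at large. The number of called genes, 26 for MDSC (conv.) and 25 for 6G- BM-MDSC, did not hold. Counts were 11 and 8 of 83 genes under quantile normalization (medians -0.116 and -0.077), against 29.2% and 32.6% of all genes. With scaling by the array median, added after seeing the data, they were 13 and 7, against 25.9% and 30.6%. The medians were then -0.215 and -0.11, and 0.097 between the MDSC groups. When only the 4 arrays compared were fitted, counts were 17 and 11, against 25% and 27.5%. A prior variance that depends on intensity gave 48 and 45, against 34.7% and 39.1%. Over probes in place of genes, 63 and 62 of 179 were called, against 27.7% and 31.1% of all probes (median -0.245 in 6G- BM-MDSC). The methods' t-test with Benjamini-Hochberg adjustment called 0 and 0, against 0.032% and 0.302% of all genes. In that test 51 and 43 ribosomal protein genes had an unadjusted p below 0.05. The count of genes with all 4 MDSC arrays below both DC arrays, 69, became 41 under quantile normalization, 45 with scaling by the median and 140 over probes. The shares of all genes were 31.6%, 29.5% and 25.5%, and that of all probes was 29.5%. With normexp background correction 39 and 37 genes were called, within 1.5 times of the counts reported, against 36.3% and 40.3% of all genes. The replicate block gave 19 genes for MDSC (conv.), against 27.3% of all genes, and 17 for 6G- BM-MDSC, against 31.4%. Between the MDSC groups it gave 0. Replicate numbers were not taken to pair the samples, since 1 of 3 correlations lay below 0.1. Leaving out 1 array at a time, with a lone array assumed to vary like the other groups, gave 0 to 17 genes in MDSC (conv.) with medians of -0.263 to -0.211, 4 to 11 genes in 6G- BM-MDSC with medians of -0.231 to -0.185, and 0 to 0 genes between the MDSC groups with medians of 0.012 to 0.053. The difference of Rps20 between 6G- BM-MDSC and DCs turned from -0.03 to 0.70 (limma adjusted p = 0.0341) without DCs replicate 2 and to -0.75 (adjusted p = 0.0288) without DCs replicate 1. Over single named genes and the alternatives that keep all arrays, 16 values for MDSC (conv.) lost and 10 gained a call, and 25 and 13 for 6G- BM-MDSC. The cause of these changes was not tested, other than that fewer arrays or more probes entered.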
